A study of Homo sapiens with 6 samples.

Results

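The genes described here are 44 that copy DNA in S phase or control entry into it, most of them known as targets of the E2F transcription factors. They were chosen by name, and each was read from the array probe that carries its symbol, with the brightest probe taken where a gene had 2. All 44 were found among the 29123 gene names on the arrays. The data come from 6 Agilent Whole Human Genome arrays, and each array compares 2 RNAs, one in Cy3 and the other in Cy5. In SKOV3, an ovarian cancer cell line, a pair of stably transfected shRNA clones directed against Hic-5 (sh-S1 and sh-S2) was set against 1 mock-transfected Ctrl clone. In A2780s, another ovarian adenocarcinoma line, 1 clone that overexpresses Hic-5 from the CMV promoter of the pCMV vector (pCMV-Hic-5) was set against its mock-transfected Ctrl. Hic-5 is a scaffold protein of focal adhesions encoded by TGFB1I1, and the design asks which genes differ when its level is changed. Every modified RNA was hybridised on 2 arrays with the dyes exchanged. The arrays of a pair of RNAs count as 1 replicate, so that n = 2 clones in SKOV3, both read against the same Ctrl RNA, and n = 1 in A2780s.

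In G1, the MCM2-7 helicase is loaded onto replication origins by CDC6 and CDT1. CDC45 and the GINS proteins then switch it on, and the polymerases follow behind it, held to the template by the clamp PCNA. The E2F factors, kept in check by RB1 until cyclin E and its kinase act, switch on many genes of this machinery together with the enzymes that make deoxynucleotides. These transcripts are therefore widely used as a reading of how many cells of a culture are in cycle. The arrays read pooled RNA, in which fewer cells in S phase and less RNA per cell cannot be told apart.

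Ratios are given as log2 of modified clone over Ctrl, so that a negative value means less RNA in the clone. TGFB1I1 itself was not lower in RNAs labelled sh-S1 and sh-S2. Its ratios were -0.16 with sh-S1 in Cy5, 0.12 with sh-S1 in Cy3, -0.11 with sh-S2 in Cy5 and 0.28 with sh-S2 in Cy3 (limma's adjusted p = 0.855), and the directions reported for SKOV3 rest on the labels. In A2780s it was far higher in the clone, at 4.05 and 2.60. Its level in the A2780s Ctrl was above that in the SKOV3 Ctrl by 3.54 on the log2 scale in Cy3 and by 5.56 in Cy5. Of 6 epithelial markers tested (9 examined), 4 were called lower in the shRNA clones as labelled, among them KRT18 at -3.52. Of 4 ovarian lineage genes tested, 2 were called lower, with PAX8 at -3.58, and of 4 fibroblast genes tested, 1 was called higher, COL3A1 at 3.65, while COL1A1 was at -0.14. Of the genes of the SKOV3 amplicon, ERBB2 was called lower at -2.28 and GRB7 was at -0.02. The log2 level of COL3A1 in Cy3 was 13.75 in sh-S1 and 12.95 in sh-S2, against 9.28 in the SKOV3 Ctrl and 12.84 in the A2780s Ctrl. That of PAX8 was 10.27 and 9.85, against 14.04 and 8.82, and that of TGFB1I1 was 8.68 and 8.07, against 8.29 and 11.83. For PDGFRB, a fibroblast gene, it was 6.51 and 6.95, against 6.04 and 7.95. On PAX8 and COL3A1 the shRNA clones thus lay nearer to the A2780s Ctrl, and on TGFB1I1 and PDGFRB nearer to the SKOV3 Ctrl. In the same order, KRT18 was at 11.07 and 11.06 in Cy3, against 15.01 and 9.46. KRT8 was at 10.90 and 10.80, against 13.16 and 9.54, and ERBB2 at 10.97 and 10.44, against 13.24 and 10.72. On all of these the shRNA clones lay nearer to the A2780s Ctrl, as they did on KRT19, KRT7 and FOLR1. The remaining markers were not counted in this way. Whether the RNAs under the shRNA labels came from SKOV3 knockdown clones was not tested, and every SKOV3 ratio given here is subject to that. CDH1 was well above background in the SKOV3 Ctrl on 2 of 4 arrays only, and all 3 endothelial markers were too dim to test. The part of these marker differences in the results was not tested. The Cy5 signal of the SKOV3 arrays was weak, with a median over all probe spots of 9.52 to 25.5 above background against 373 to 530 in Cy3, whereas on the A2780s arrays Cy5 stood at 441 and 568.

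The promoters are shown first, because E2F acts there and the members may share its recognition letters. A window of 250 bases before to 50 after the RefSeq start site (GRCh38.p14) was found for 39 of the 44 genes. It was searched on both strands for the E2F letters TTTCCCGC, TTTCGCGC, TTTGCCGC and TTTGGCGC, and for CCAAT, the letters bound by NF-Y. Matches that overlap each other, such as a pair of E2F matches on opposite strands, were counted separately. E2F letters were present in 22 of 39 members (56.4%), against 3.99% of all 27305 genes with a window. They stood in 18 of 46 other replication and E2F pathway genes (39.1%) and in 2 of 20 genes of mitosis (10.0%). CCAAT was found in 53.8% of members, 39.7% of all genes and 90.0% of the mitosis genes. Most members are known E2F targets, so a high share of E2F letters follows in part from the choice of genes. Their windows were also richer in G and C, with a median of 67.7% against 58.7% for all genes. A match is a description of the sequence and not a measurement of binding. The windows of 5 members whose ratios are described in detail are printed with E2F and CCAAT letters in capitals, in either orientation. E2F1 (chr20:33686336-33686635, minus strand) holds 2 E2F matches, beginning 33 and 20 bases before its start. CDC6 (chr17:40287629-40287928, plus strand) has 1, which begins at base 8 after the start. MCM3 (chr6:52284693-52284992, minus strand) has 2, beginning 174 and 4 bases before the start. TK1 (chr17:78187003-78187302, minus strand) and CCNE1 (chr19:29811741-29812040, plus strand) hold none of these letters in the window, and TK1 holds 2 CCAAT matches.
E2F1: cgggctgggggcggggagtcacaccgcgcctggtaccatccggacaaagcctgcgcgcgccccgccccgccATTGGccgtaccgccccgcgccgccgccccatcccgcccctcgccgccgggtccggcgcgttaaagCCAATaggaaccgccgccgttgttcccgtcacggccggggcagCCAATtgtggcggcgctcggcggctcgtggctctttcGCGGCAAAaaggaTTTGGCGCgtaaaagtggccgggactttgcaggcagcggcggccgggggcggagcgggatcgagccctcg
CDC6: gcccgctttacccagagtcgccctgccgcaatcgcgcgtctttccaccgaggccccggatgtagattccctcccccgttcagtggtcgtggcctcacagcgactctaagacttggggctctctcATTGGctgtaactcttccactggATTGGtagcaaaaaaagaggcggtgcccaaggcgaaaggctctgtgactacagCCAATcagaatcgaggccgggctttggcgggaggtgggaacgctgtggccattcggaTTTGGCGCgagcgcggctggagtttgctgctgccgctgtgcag
MCM3: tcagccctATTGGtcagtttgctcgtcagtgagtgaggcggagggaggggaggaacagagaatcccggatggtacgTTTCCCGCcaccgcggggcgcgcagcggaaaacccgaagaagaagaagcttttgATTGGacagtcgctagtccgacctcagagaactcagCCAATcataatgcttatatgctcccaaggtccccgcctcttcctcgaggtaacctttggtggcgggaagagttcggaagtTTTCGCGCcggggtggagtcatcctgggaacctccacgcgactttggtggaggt
TK1: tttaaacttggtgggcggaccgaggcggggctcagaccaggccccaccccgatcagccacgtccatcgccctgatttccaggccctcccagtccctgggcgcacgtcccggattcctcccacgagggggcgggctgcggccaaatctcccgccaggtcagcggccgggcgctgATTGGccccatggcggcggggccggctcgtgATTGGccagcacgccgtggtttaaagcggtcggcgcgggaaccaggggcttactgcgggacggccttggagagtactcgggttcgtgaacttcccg
CCNE1: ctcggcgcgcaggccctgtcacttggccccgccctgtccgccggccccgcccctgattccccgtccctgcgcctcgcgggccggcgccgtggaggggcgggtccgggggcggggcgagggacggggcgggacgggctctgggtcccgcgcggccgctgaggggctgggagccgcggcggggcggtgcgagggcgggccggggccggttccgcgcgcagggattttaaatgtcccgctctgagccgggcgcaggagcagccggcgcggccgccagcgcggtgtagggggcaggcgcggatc

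**Figure D1:**
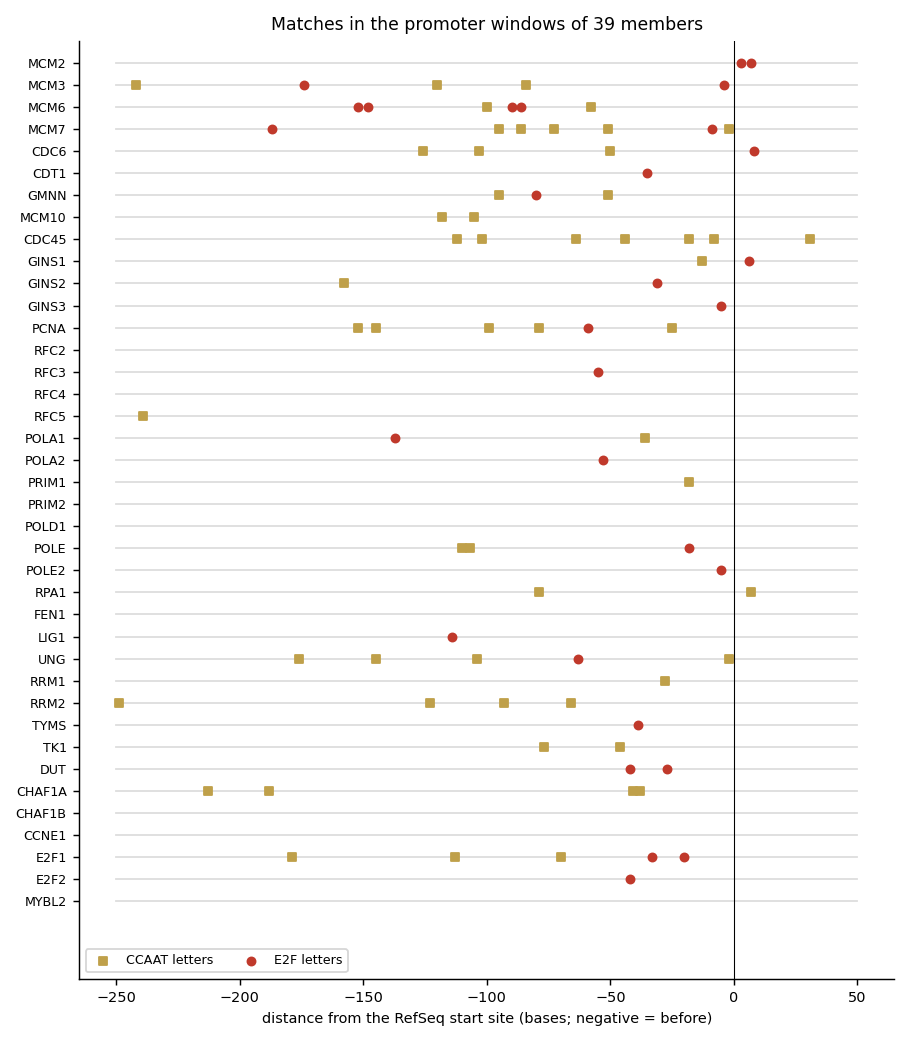
Position of E2F letters (red circles) and CCAAT letters (ochre squares) in the promoter windows of the 39 members with a window, in bases from the RefSeq start site, with all windows of a gene drawn on one line. E2F letters occur in 22 genes and lie between 187 bases before and 8 after the start.

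In SKOV3, 2 of the 42 members tested were called lower, and none higher, in RNAs labelled sh-S1 and sh-S2. These were TK1, the thymidine kinase that salvages thymidine for DNA synthesis, and E2F1, the best known activating E2F. A call needed a change of at least 2-fold and an adjusted p of at most 0.05 from limma (Benjamini-Hochberg over all 24955 probes tested). By this rule 4.16% of all tested probes were called lower and 2.97% higher, so that a share of 2 in 42 lies near the background. Before adjustment, 6 members had an unadjusted p of at most 0.05 on the higher side and 19 on the lower side, against 20.3% and 20.8% of all tested probes. The p-values measure only the spread between these samples, and the Ctrl, 1 RNA, adds none to it.

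The ratios of TK1 were -1.47 with sh-S1 in Cy5, -1.52 with sh-S1 in Cy3, -1.30 with sh-S2 in Cy5 and -1.59 with sh-S2 in Cy3. All 4 arrays placed it well below the Ctrl, and the clones and dyes gave nearly the same value. Its mean was -1.47 ± 0.04 (SD, n = 2 clones), or 2.76-fold lower (standard error 0.09, limma's adjusted p = 7.69e-05). E2F1 read -0.64 and -0.72 with sh-S1 and sh-S2 in Cy5, and -1.50 and -1.38 with them in Cy3. It was lower on every array, less so when the clone was in Cy5. Its mean was -1.06 ± 0.02 (SD, n = 2 clones), or 2.09-fold lower, with an adjusted p of 0.000293 from limma. Taken from its Cy5 arrays only, the mean was -0.68, short of 2-fold.

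With no fold threshold, 16 members were lower and 4 higher at the adjusted p alone, counting TK1 and E2F1 among the lower ones. Over all tested probes the same rule held for 16.2% on the lower and 15.6% on the higher side. The members' median log2 ratio was -0.22, against 0.00 for all tested probes, and it was -0.26 in sh-S1 and -0.19 in sh-S2. The sign was negative in 28 of the 42 and positive in 14.

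The members' median differed more between the dye orientations than between the clones. With the clones in Cy5, 34 of 42 members were lower and their median was -0.34, and with the clones in Cy3, 22 were lower and the median was -0.06. Of all tested probes, 49.8% were lower in the former and 50.1% in the latter. The orientations gave opposite signs for 20 members and the same sign for 22 (52.4%, against 56.0% of all tested probes). Pearson's r across the tested probes, which are not independent replicates, was 0.610 and 0.606 between the swapped arrays of sh-S1 and of sh-S2, and 0.892 and 0.895 between clones hybridised in the same orientation. Because the arrays of a clone were averaged before the test, the adjusted p does not carry this difference between the dyes. A total of 13 members were lower on all 4 arrays (31.0%, against 19.5% of all tested probes) and 3 were higher on all 4 (7.14% against 18.5%). The 13 were CDC6, CDC45, GINS1, GINS2, RFC4, RFC5, POLA1, RRM1, TK1, CHAF1A, CHAF1B, CCNE2 and E2F1, and the 3 were POLD1, RPA3 and CCNE1.

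**Figure D2:**
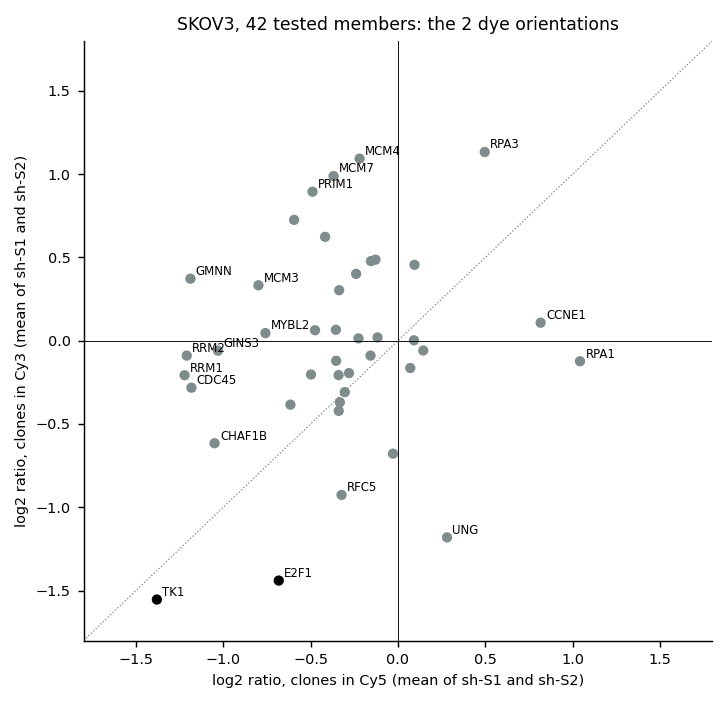
Mean log2 ratio of sh-S1 and sh-S2 over the Ctrl with the clones in Cy5 (x axis) against the mean with the clones in Cy3 (y axis), 1 point per tested member of 42, with the 2 called genes in black and equality dotted. TK1 lies near the dotted line, E2F1 below it, and 20 members lie in the quadrants of opposite sign.

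Among the origin licensing genes, 2 of 9 were lower and 1 higher at the adjusted p, against 16.2% and 15.6% of all tested probes. The same shares stand beside the counts of the other roles. The median of the licensing genes was -0.21, at -0.37 with the clones in Cy5 and 0.33 in Cy3. The orientations gave opposite signs for 7 of these 9 genes. CDC6, which loads the helicase, was the lowest. Its ratios were -0.82 and -0.60 for sh-S1 in Cy5 and Cy3, and -0.41 and -0.17 for sh-S2. The mean of -0.50 ± 0.30 (SD, n = 2 clones) had an adjusted p of 0.0225 from limma and was short of 2-fold. MCM4, a helicase subunit, was the highest, at -0.35 and 1.20 for sh-S1 in Cy5 and Cy3, and at -0.09 and 0.98 for sh-S2. Its mean of 0.44 (adjusted p = 0.0123, limma) came from the arrays with the clone in Cy3 alone, where it reached 1.09. MCM3 and MCM7 likewise turned with the dye, MCM3 from -0.86 and -0.74 in Cy5 to 0.24 and 0.43 in Cy3. MCM2 read 0.11 and -0.11 for sh-S1, and 0.18 and 0.00 for sh-S2, with a mean of 0.04 (adjusted p = 0.795, limma). GMNN, the inhibitor of CDT1, was at -0.41 (adjusted p = 0.0256, limma), with -1.22 and -1.15 in Cy5 and 0.16 and 0.59 in Cy3.

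All 5 helicase activation genes had negative means, and 2 were lower at the adjusted p. CDC45, the partner of MCM and GINS in the active helicase, gave -1.37 and -0.26 for sh-S1 in Cy5 and Cy3 and -1.00 and -0.31 for sh-S2. It stood below the Ctrl on all 4 arrays, by more in Cy5. Its mean was -0.73 ± 0.11 (SD, n = 2 clones; adjusted p by limma 0.00182). GINS3 was at -0.55 (adjusted p = 0.00739, limma). MCM10, which helps to start the fork, was the highest of the group at -0.02 (adjusted p = 0.922, limma), with -0.35 and -0.32 in Cy5 and 0.26 and 0.35 in Cy3.

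Of the clamp and its loader, 2 of 5 genes were lower at the adjusted p. PCNA read -0.05 and 0.14 for sh-S1 in Cy5 and Cy3, and -0.40 and -0.12 for sh-S2, with a mean of -0.11 (adjusted p = 0.541, limma). The clamp loader subunit RFC5 was the lowest, with -0.48 and -1.01 for sh-S1 and -0.17 and -0.84 for sh-S2, and a mean of -0.62 ± 0.17 (SD, n = 2 clones; adjusted p by limma 0.00451). RFC4 was at -0.35 (adjusted p = 0.0339, limma) and lower on all 4 arrays. RFC2 was the highest at 0.07, with -0.73 and -0.46 in Cy5 and 0.49 and 0.96 in Cy3.

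Among the polymerases and the primase, 1 of 6 tested genes was lower at the adjusted p and the median was 0.02. That gene was POLA1, the catalytic subunit of polymerase alpha, which gave -0.43 and -0.15 for sh-S1 and -0.56 and -0.26 for sh-S2 (mean -0.35; limma's adjusted p = 0.0318). POLD1, the catalytic subunit of polymerase delta, was the highest at 0.27, with 0.07 and 0.30 for sh-S1 and 0.12 and 0.61 for sh-S2 (adjusted p = 0.0795, limma). POLE was not tested, since it was well above background in the Ctrl on 2 of the 4 arrays only. In the single-strand binding complex RPA, 2 of 3 subunits were higher at the adjusted p. RPA3 gave 0.30 and 0.84 for sh-S1 in Cy5 and Cy3 and 0.69 and 1.43 for sh-S2. It was above the Ctrl on all 4 arrays. The mean was 0.81 ± 0.35 (SD, n = 2 clones; adjusted p by limma 0.00423), and RPA3 passed 2-fold with sh-S2 alone, at 1.06. RPA1 (0.46; limma's adjusted p = 0.012) was higher in Cy5 alone, at 1.18 and 0.90, and RPA2 was at 0.05, with 0.05 and -0.49 for sh-S1 and 0.14 and 0.50 for sh-S2.

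The genes that finish Okazaki fragments and remove uracil had negative means. UNG, the uracil-DNA glycosylase, was the lowest at -0.45 (adjusted p = 0.0114, limma), but it turned with the dye, from 0.15 and 0.41 in Cy5 to -0.97 and -1.39 in Cy3. FEN1, the flap endonuclease, was at -0.35 (adjusted p = 0.0341, limma), with 0.07 and -0.61 for sh-S1 and -0.13 and -0.75 for sh-S2. LIG1, the ligase, was at -0.15, with -0.32 and 0.08 for sh-S1 and -0.39 and 0.05 for sh-S2.

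Nucleotide supply had the lowest median of the 9 roles, at -0.68 over 4 tested genes, of which 3 were lower at the adjusted p, TK1 among them. This rank depended on dye and clone. With the clones in Cy3 the nucleotide supply median was -0.15. Okazaki fragment joining and uracil removal was then at -0.68 and chromatin assembly at -0.52. In sh-S2 the median of nucleotide supply was -0.44, against -0.55 for chromatin assembly. RRM1 and RRM2 encode the subunits of ribonucleotide reductase. RRM1 was at -0.71 (adjusted p = 0.00359, limma), with -1.59 and -0.17 for sh-S1 and -0.86 and -0.25 for sh-S2. RRM2 gave -1.49 and -0.46 for sh-S1 in Cy5 and Cy3, and -0.93 and 0.28 for sh-S2, with a mean of -0.65 ± 0.46 (SD, n = 2 clones; adjusted p by limma 0.0202). RRM1 was below the Ctrl on all 4 arrays and RRM2 on 3 of them, and both were lowest in Cy5. DUT, the dUTPase, was at 0.10, with -0.86 and 0.34 for sh-S1 and 0.02 and 0.91 for sh-S2. TYMS, thymidylate synthase, has a single spot, whose Cy5 signal carried an outlier flag on all 4 SKOV3 arrays, and it was left out of the test. With such spots kept, its ratios were -0.19 and -0.47 for sh-S1 and 0.31 and -0.13 for sh-S2, with a mean of -0.12 (adjusted p = 0.537, limma).

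Both chromatin assembly genes, subunits of the CAF-1 histone chaperone, were lower at the adjusted p and on all 4 arrays. CHAF1B gave -1.14 and -0.65 for sh-S1 in Cy5 and Cy3 and -0.96 and -0.58 for sh-S2, a mean of -0.83 ± 0.09 (SD, n = 2 clones; adjusted p by limma 0.000948). CHAF1A was at -0.38 (adjusted p = 0.0235, limma), with -0.47, -0.41, -0.21 and -0.44 in the same order. Among the other cell cycle regulators, the cyclin E genes did not move together. CCNE1 was higher on all 4 arrays, with 0.98 and 0.19 for sh-S1 and 0.65 and 0.02 for sh-S2, and its mean of 0.46 ± 0.18 (SD, n = 2 clones; adjusted p by limma 0.0161) was short of 2-fold. CCNE2 gave -0.33 and -0.21 for sh-S1 and -0.35 and -0.21 for sh-S2 (mean -0.27; limma's adjusted p = 0.0659). It was well above background in the clones on 2 of 4 arrays only, and on the processed signals of the scanner software it was called, at -1.27. E2F2 was at 0.18, with -0.26 and 0.19 for sh-S1 and 0.00 and 0.78 for sh-S2. MYBL2, an E2F target that itself drives late cell cycle genes, was at -0.36 (adjusted p = 0.0301, limma), with -0.75 and -0.77 in Cy5 and -0.09 and 0.18 in Cy3.

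**Figure D3:**
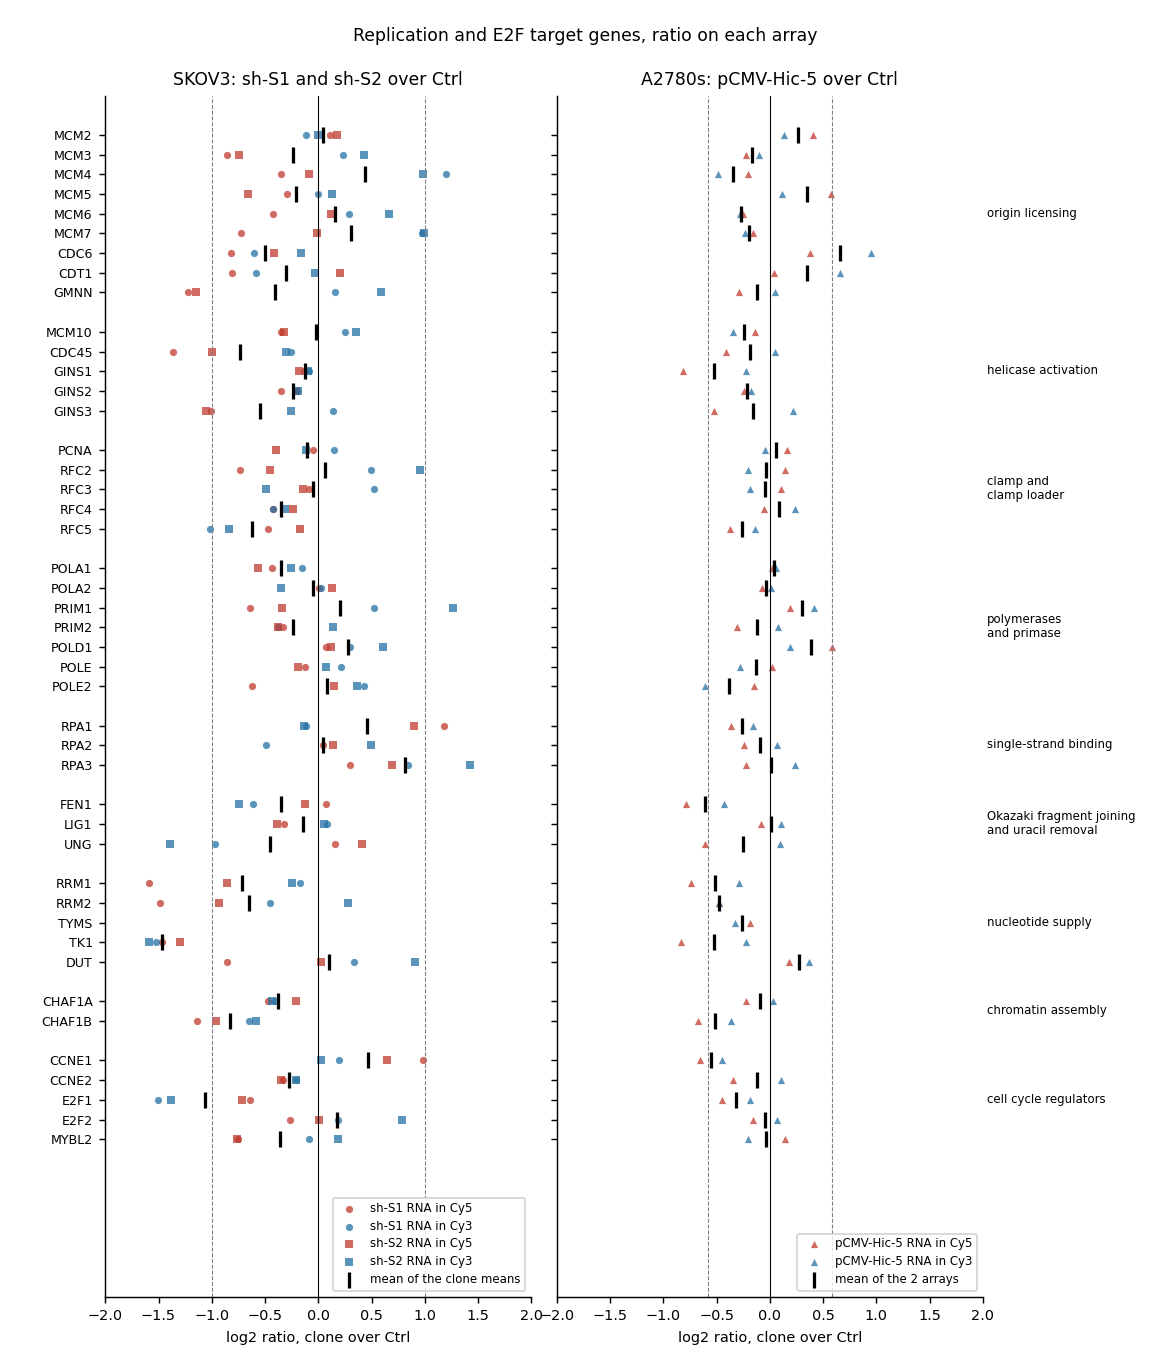
Log2 ratio of modified clone over Ctrl on every array for the 44 members, grouped by role, in SKOV3 (left, circles sh-S1 and squares sh-S2) and A2780s (right, triangles), with the clone in Cy5 in red and in Cy3 in blue, means as black bars, and dashed lines at 2-fold (left) and 1.5-fold (right). TK1 and E2F1 are the only members whose SKOV3 mean passes the left dashed line.

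A 2nd probe was present for 10 members besides POLE. RRM2 was lower at the adjusted p on both of its probes, at -0.65 and -0.52. The dimmer probe of FEN1 was at -0.16 (adjusted p = 0.266, limma) and that of CDT1 at 0.04 against -0.31. PRIM2 was at -0.24 on the brighter and -0.31 on the dimmer probe, and the latter passed the adjusted p (0.0469, limma).

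In A2780s, 2 of the 44 members passed the fold rule, CDC6 upwards and FEN1 downwards. The rule asked for a mean of at least 1.5-fold with the same sign on both arrays, and there is no test, since a single clone was measured. Of all 30530 measured probes, 3.26% passed it on the higher side and 1.32% on the lower side, so that 1 member in 44 on either side is close to the background. CDC6 was at 0.38 (clone in Cy5) and 0.95 (clone in Cy3), and its mean of 0.66 is 1.58-fold higher. FEN1 was at -0.78 and -0.43, a mean of -0.61 or 1.52-fold lower, and its dimmer probe gave -0.56. No member reached 1.5-fold on each array or 2-fold in the mean.

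The members' median was -0.13, against -0.01 for all measured probes, and 32 of the 44 were below 0. Signs were the same on both arrays for 26 members, 18 of them lower and 8 higher, and opposite for 18 (40.9%, against 40.3% of all measured probes). On the brightest probes and the mean of both arrays, nucleotide supply was again the role with the lowest median, at -0.48. That is the value of RRM2. With the clone in Cy5 alone, Okazaki fragment joining and uracil removal was lower, at -0.61, and nucleotide supply was at -0.48. The dimmer RRM2 probe was at -0.24, and the median of chromatin assembly was -0.31. TK1 was at -0.83 and -0.22 with the clone in Cy5 and Cy3 (mean -0.53), RRM2 at -0.48 on both arrays, RRM1 at -0.74 and -0.29 (mean -0.51), TYMS at -0.19 and -0.33 (mean -0.26) and DUT at 0.18 and 0.37 (mean 0.27). CHAF1B was at -0.67 and -0.36 (mean -0.52), and CCNE1 at -0.66 and -0.45 (mean -0.55). Both lay on the same side on the 2 arrays and short of 1.5-fold in the mean.

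The origin licensing genes were spread to both sides. MCM2 was at 0.40 and 0.13, CDT1 at 0.03 and 0.66, and MCM5 at 0.58 and 0.11, while MCM4 was at -0.21 and -0.49. E2F1 stood at -0.45 and -0.19 (mean -0.32), E2F2 at -0.15 and 0.07, MYBL2 at 0.14 and -0.21, CCNE2 at -0.35 and 0.11, and PCNA at 0.16 and -0.04. The last 4 of these had opposite signs on the arrays.

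For 2 members the single A2780s ratio lay apart from the SKOV3 ratios by the thresholds. Limma compared the pCMV-Hic-5 ratio with the mean of the SKOV3 clones, with the lone A2780s value assumed to vary like the SKOV3 clones. The spread between A2780s clones was not measured, so that the adjusted p sets 1 value against the spread of the SKOV3 clones only. It called 4.57% of 23728 probes higher in A2780s and 3.43% lower. CDC6 was called higher, with a difference of 1.16 (standard error 0.22, adjusted p = 0.0165), from -0.50 in SKOV3 to 0.66 in A2780s. CCNE1 was called lower, with a difference of -1.02 (standard error 0.18, adjusted p = 0.0144), from 0.46 to -0.55. On either side the share of members called lay below that of all probes. For both genes the signs were opposite in the lines on every array. Without sh-S1 the differences were 0.95 and -0.89, both short of 2-fold. Differences short of 2-fold lay on both sides. The difference was 0.94 for TK1 and 0.75 for E2F1, whose SKOV3 ratios were the lower ones, with negative means in both lines. It was -0.81 for RPA3, -0.78 for MCM4 and -0.72 for RPA1, whose SKOV3 ratios were the higher ones. All SKOV3 arrays lay on 1 slide, read in 1 scan, and both A2780s arrays on another, and the effects of slide and line cannot be told apart.

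**Figure D4:**
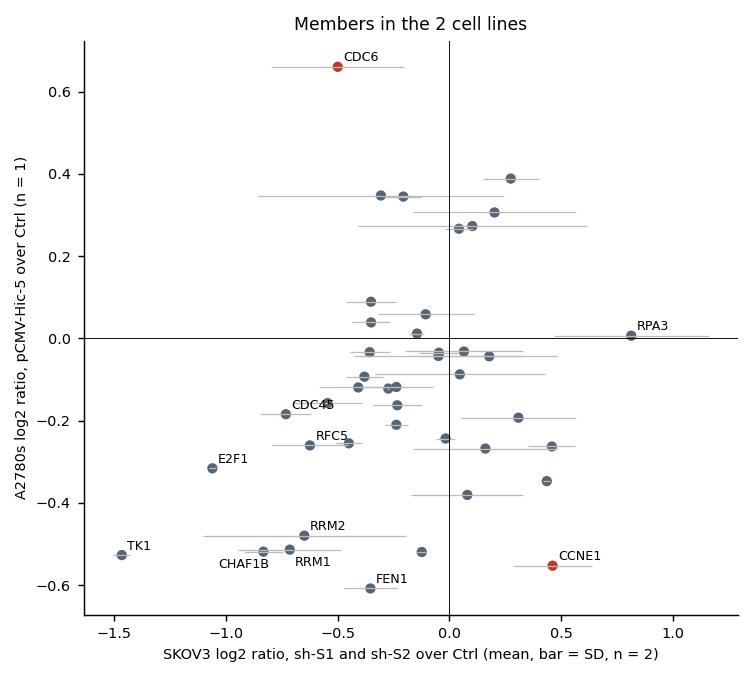
Mean log2 ratio in SKOV3 (x axis, bars SD over n = 2 clones) against A2780s (y axis, n = 1) for the 42 members measured in both lines, with the 2 genes called between lines in red. CDC6 lies at the upper left and CCNE1 at the lower right, while TK1, E2F1, CHAF1B, RRM1 and RRM2 lie at the lower left.

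Levels of these genes also lay apart between the Ctrl RNAs of the lines, a single RNA in each line. Each line had its own slide, and line and slide cannot be told apart here. Levels are log2 intensities per dye after normalization between arrays, compared for the same probe and dye only. The same SKOV3 Ctrl RNA could vary between arrays. RFC3 in Cy5 was at 9.99 beside sh-S1 and 11.36 beside sh-S2, whereas TK1 was at 15.51 and 15.50. The A2780s Ctrl was below the SKOV3 Ctrl in both dyes for 28 of 42 members and above it in both for 5, against 38.4% and 36.3% of all probes measured in both lines. The median difference over members was -0.46 in Cy3 and -0.39 in Cy5, against -0.08 and 0.04 over all probes. E2F1 was at 9.28 in the A2780s Ctrl and 10.82 in the SKOV3 Ctrl in Cy3, and at 9.06 and 11.01 in Cy5. TK1 was at 13.93 and 15.09 in Cy3, and at 13.46 and 15.51 in Cy5. RPA3 lay the other way, with the A2780s Ctrl higher by 1.07 in Cy3 and 0.92 in Cy5. These differences and the SKOV3 ratios hold the same SKOV3 Ctrl, and the values are only set side by side.

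Other genes of the pathway were read from lists of 57 replication, E2F and repair genes and of 25 genes of mitosis. In SKOV3, 2 of 56 tested pathway genes were called lower and none higher, against 4.16% and 2.97% of all tested probes. A share of 2 in 56 thus lies near the background. At the adjusted p alone 13 were lower and 8 higher, against 16.2% and 15.6% of all tested probes. RB1, the pocket protein that restrains E2F, was at -1.56 and -1.10 for sh-S1 in Cy5 and Cy3 and -1.57 and -1.30 for sh-S2 (mean -1.38 ± 0.08, SD, n = 2 clones; adjusted p by limma 0.000105). E2F7, a repressing E2F that is itself induced by E2F1, was at -1.00, -0.97, -1.50 and -1.64 in the same order (mean -1.28 ± 0.41, SD, n = 2 clones; adjusted p by limma 0.000973). Both were lower on all 4 arrays. The pathway genes had a median of -0.16.

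Limma called none of the 25 mitosis genes in SKOV3, where 15 (against 41.1% of all tested probes) had an unadjusted p of at most 0.05, 10 of them lower. Their median was -0.54 with the clones in Cy5 and 0.21 with the clones in Cy3, and the orientations gave opposite signs for 48.0% of them, against 47.6% of the members. In A2780s, 6 of 56 measured pathway genes passed the fold rule, 4 lower and 2 higher, and none of the 25 mitosis genes did. Over all measured probes the rule held for 1.32% on the lower and 3.26% on the higher side. TOP1 (-1.17 and -0.59), UHRF1 (-1.03 and -0.23), E2F8 (-0.83 and -0.41) and POLD3 (-0.83 and -0.34) were lower, and the histone chaperone ASF1A (0.82 and 0.48) and E2F5 (0.68 and 0.51) were higher. Between the lines, E2F7 was called higher in A2780s (difference 1.46) and NASP (-1.15), TOP1 (-1.15) and WDHD1 (-1.03) lower, with limma's adjusted p from 0.0062 to 0.0245.

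**Figure D5:**
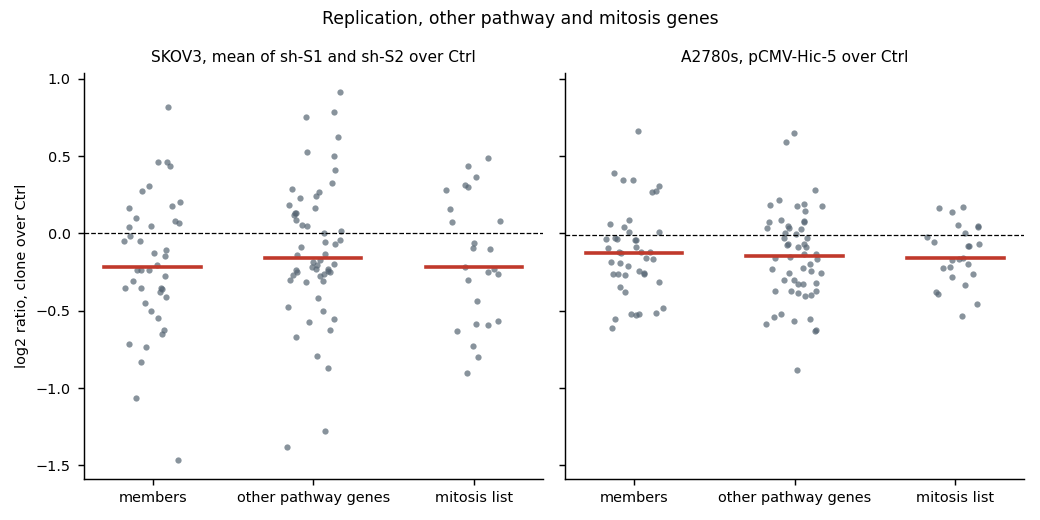
Log2 ratios of the members, the other pathway genes and the mitosis list in SKOV3 (left) and A2780s (right), 1 point per gene, with each list's median as a red bar and the median of all probes as a dashed line. The SKOV3 medians are -0.22, -0.16 and -0.22, and the A2780s medians are -0.13, -0.14 and -0.16.

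The ratios can also be set beside the promoter windows. In SKOV3 the median was -0.13 over the 20 tested members with the letters, E2F1 among them, and -0.35 over the 17 whose window lacks them, TK1 among them. In A2780s the medians were -0.12 and -0.24. These medians are descriptions and were not tested.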

How the data were processed

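Per the labels, 6 two-colour arrays held RNA of SKOV3 and A2780s clones against their Ctrl clones. The authors deposited, for each spot, the mean intensity and the median local background of both dyes as Agilent Feature Extraction (version 8.5.1.1 in the submitters' processing notes) wrote them, processed intensities from the same software, and log10 ratios (Cy5 over Cy3) made from the latter. The deposited series values are the same log10 ratios, rounded. The background correction, normalization and test behind the study's own lists are not given in the sources used here.

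From the intensities, background was corrected with limma 3.58.1 in R 4.3.3 (normexp, offset 50, spots with a local background over 1000 left out), ratios were normalized within arrays by loess, control and outlier-flagged spots were dropped, and spots of a probe were averaged. Ratios were turned to clone over Ctrl by the labelled dyes and dye-swapped arrays were averaged. Probes were kept if their signal was well above background on every array in a line's Ctrl, or on both arrays in one clone, 24955 in SKOV3 and 30530 in A2780s. SKOV3 clones were tested against 0 and lines against each other with lmFit and eBayes. A check of these fits on simulated data had independent errors, no shared Ctrl RNA and no dye effect. It therefore does not cover false calls in these arrays. For channel levels, arrays were also scaled by Aquantile. Arrays give no counts, and precision is limited by signal over background and by how few arrays there are.

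The members and lists were chosen with earlier results of these data known. Genes named with their array values are those called in a comparison, the highest and lowest of each role in SKOV3, and MCM2, CDC6, PCNA, RRM2, TYMS, CCNE1, CCNE2, E2F1, E2F2 and MYBL2, and a few others, named after their values were seen. Alternatives were the processed signals, the deposited log ratios, other background and normalization settings, no dim filter, gene means, single dye orientations, single clones and other thresholds. Keeping flagged spots was chosen after seeing the data.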

Additional observations from a re-analysis of the deposited data

Results flagged for a closer look

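For 2 members the ratio of the single A2780s clone lay apart from the mean of the SKOV3 clones past both thresholds. The A2780s spread was not measured and was assumed to equal that of the SKOV3 clones. On either side, the share of members past the thresholds lay below that of all probes in the same comparison. For CDC6 the A2780s ratio exceeded the SKOV3 ratio by 1.16 on the log2 scale (limma's adjusted p = 0.0165). The difference was 1.37 with sh-S1 as the only SKOV3 clone and 0.95 with sh-S2 as the only one, and it was 0.99 in the Cy5 and 1.33 in the Cy3 orientation of the clone. For CCNE1 the A2780s ratio was below the SKOV3 ratio, by -1.02 (limma's adjusted p = 0.0144). It was -1.14 with sh-S1 alone and -0.89 with sh-S2 alone, and -1.47 and -0.56 in the respective dye orientations. Over the alternatives limma's adjusted p ran from 0.00284 to 0.084 for CDC6 and from 6.02e-05 to 0.152 for CCNE1. The part of the slide in these differences cannot be told apart from that of the cell line. No group held enough samples for a search for samples far from the others.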

How the results depend on the processing

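TK1 kept its direction and its call under every alternative with a test (-1.62 to -1.38), and E2F1 under all of them except the Cy5 orientation of the clone alone. The count of SKOV3 members called (2) was 8 in the Cy5 orientation alone (19.0% of members, against 8.01% of all tested probes) and 5 in the Cy3 orientation alone (11.9% against 10.4%). It was 20 with no fold threshold (47.6% against 31.7%) and 8 at 1.5-fold (19.0% against 16.8%), and with a single clone, where only the fold was applied, it was 2 to 3. The members' SKOV3 median (-0.22) was -0.37 with median centring, -0.34 and -0.060 in the Cy5 and Cy3 orientations, and -0.26 to -0.19 with either clone left out. In A2780s the count past the fold rule (2) was 4 on the processed signals and on the deposited log ratios, 1 with normexp fitted on all spots, with median centring and with gene means, 8 on its Cy5 array alone (18.2% of members, against 10.8% of all probes), 3 on its Cy3 array alone (6.82% against 4.01%, with no gene in common with the 8), and 0 at 2-fold or with 1.5-fold required on each array. CDC6 passed in all of these settings except the Cy5 array alone and the stricter rules, and FEN1 fell short in 4 settings at the 1.5-fold rule. The count called between lines (2) was 1 on the processed signals, the deposited log ratios and with normexp fitted on all spots, 7 in the Cy3 orientation alone (16.7% against 11.4% of all probes), and 1 to 3 with a clone left out. TK1 and E2F1 in SKOV3 and CDC6 and FEN1 in A2780s kept their sign under every alternative run, and genes other than members were not recomputed. Of the named members, which are mostly short of the thresholds, 11 in SKOV3 and 12 in A2780s changed sign under at least one alternative. The weak Cy5 signal limits the SKOV3 values of dim genes such as POLE, CCNE2 and UNG. No fit with the slide as a block could be made, since each slide held 1 line. No paired analysis was possible because the arrays numbered 1 and 2 of each clone are the dye orientations of 1 pair of RNAs, averaged before the fit. Each array already sets a clone against its Ctrl, and the values within each orientation are those given for Cy5 and Cy3 alone.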
